A study of Mus musculus with 8 samples.

Results

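Acute-phase genes, whose protein products are made in larger amounts during inflammation, were followed in mouse pancreas, 10 in all. They were the serum amyloid A genes Saa1, Saa2 and Saa3, the lipocalin gene Lcn2, haptoglobin (Hp), ceruloplasmin (Cp), orosomucoid 1 (Orm1) and the 3 fibrinogen chain genes Fga, Fgb and Fgg. They were chosen by symbol, and all 10 were rows of the deposited table of 16888 genes. The table holds 8 pancreas libraries of mice that were injected repeatedly with cerulein, a secretagogue that damages acinar cells and causes acute pancreatitis. Of these, 4 came from mice with a myeloid-specific knockout of Anxa1 (CKO1 to CKO4), the gene of the phospholipid-binding protein annexin A1, and 4 from Anxa1 flox/flox mice, titled WT (WT1 to WT4). Both groups therefore had pancreatitis, and no library of untreated mice was part of the comparison. The labels give neither the promoter that drove the recombinase, nor the age of the mice, nor the time after the injections. They also do not say whether the 4 libraries of a group were separate animals, so the p-values measure the spread between libraries, which may be technical. Levels are RPKM, reads scaled to the length of the gene and the total of the library, and log2 changes are those of log2(RPKM + 1), CKO minus WT.

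Acute-phase proteins are plasma proteins whose output rises when interleukin 1, interleukin 6 and related cytokines act on the liver, through the transcription factors STAT3, NF-kappaB and the C/EBP family. Hepatocytes are the main source of most of them, but Saa3 and Lcn2 are also made outside the liver, by macrophages, adipocytes and epithelial cells, and haptoglobin is also made by adipocytes. Serum amyloid A proteins bind lipids and act on leukocytes, lipocalin 2 withholds iron from bacteria by binding their siderophores, haptoglobin binds free hemoglobin, ceruloplasmin is a copper-carrying ferroxidase, and the 3 fibrinogen chains assemble into the precursor of the fibrin clot. In whole tissue, a lower level can come from fewer cells of a type or from less RNA per cell, and these cannot be told apart here.

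The serum amyloid and fibrinogen genes each form a cluster. Saa3, Saa1 and Saa2 lay within 42.3 kb of chromosome 7 (46711998 to 46754313), and Fgg, Fga and Fgb within 42.1 kb of chromosome 3 (83007724 to 83049863), in mm10 with GENCODE M21. The 250 bases before the start site were taken from RefSeq promoters of GRCm38.p6, which held 8 of the 10 genes and not Hp or Orm1. Distances are to these RefSeq start sites, which are not all those of GENCODE M21. The Lcn2 window lies within the GENCODE gene, and the Saa2, Saa3 and Fga windows run past the GENCODE start. These windows are shown because genes of 1 cluster had unlike levels below, and they were searched on both strands for a C/EBP word (TTNNGCAA) and a STAT word (TTCNNNGAA). Matches are in capitals, 5′ to 3′ on the strand of the gene, and a match on the other strand reads as its reverse complement.
Saa3 (chr7:46715677-46715926, minus strand): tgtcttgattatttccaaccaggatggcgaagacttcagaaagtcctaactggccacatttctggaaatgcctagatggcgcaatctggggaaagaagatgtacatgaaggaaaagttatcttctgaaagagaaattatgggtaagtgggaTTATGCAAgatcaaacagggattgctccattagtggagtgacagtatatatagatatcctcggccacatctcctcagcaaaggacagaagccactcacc
Saa1 (chr7:46742981-46743230, minus strand): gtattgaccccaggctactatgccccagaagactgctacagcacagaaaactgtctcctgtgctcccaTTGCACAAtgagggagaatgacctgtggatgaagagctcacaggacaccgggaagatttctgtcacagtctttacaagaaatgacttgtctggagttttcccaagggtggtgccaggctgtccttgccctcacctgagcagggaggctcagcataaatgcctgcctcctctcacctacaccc
Saa2 (chr7:46751583-46751832, plus strand): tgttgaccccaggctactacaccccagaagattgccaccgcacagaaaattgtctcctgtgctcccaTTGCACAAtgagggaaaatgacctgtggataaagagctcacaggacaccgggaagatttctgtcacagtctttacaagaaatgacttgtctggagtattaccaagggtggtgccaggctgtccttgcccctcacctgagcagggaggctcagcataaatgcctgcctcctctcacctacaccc
Fga (chr3:83025903-83026152, plus strand): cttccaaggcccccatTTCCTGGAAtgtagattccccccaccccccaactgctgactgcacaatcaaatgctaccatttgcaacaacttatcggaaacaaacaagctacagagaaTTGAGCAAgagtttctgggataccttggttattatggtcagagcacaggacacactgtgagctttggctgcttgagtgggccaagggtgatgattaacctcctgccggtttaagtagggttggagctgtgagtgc
Fgb (chr3:83049864-83050113, minus strand): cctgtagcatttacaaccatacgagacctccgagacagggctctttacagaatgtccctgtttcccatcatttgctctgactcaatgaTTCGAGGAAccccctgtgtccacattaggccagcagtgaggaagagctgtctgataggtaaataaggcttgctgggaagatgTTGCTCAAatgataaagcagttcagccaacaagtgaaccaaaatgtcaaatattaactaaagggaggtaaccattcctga
Fgg (chr3:83007474-83007723, plus strand): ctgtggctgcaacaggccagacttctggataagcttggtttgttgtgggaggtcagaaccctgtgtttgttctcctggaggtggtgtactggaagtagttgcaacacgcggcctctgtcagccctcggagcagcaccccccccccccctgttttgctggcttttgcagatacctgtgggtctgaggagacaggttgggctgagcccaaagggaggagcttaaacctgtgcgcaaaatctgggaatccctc
The C/EBP word was present in 9.56% and the STAT word in 7.02% of all 32851 promoter windows of this length. Saa3 held TTATGCAA, which begins 99 bases before the start site. Saa1 and Saa2 held TTGCACAA at 182 and 183 bases before it. Fga held TTGAGCAA at 135 and TTCCTGGAA at 234 bases, and Fgb held TTGCTCAA at 80 and TTCGAGGAA at 162 bases before the start, while neither word was found in the Fgg window. Lcn2 held TTGCTCAA at 216 bases, and of the 2 start sites of Cp the second had TTTTGCAA at 70 bases before it. The windows of Saa1 and Saa2 were 94.8% identical and those of Saa1 and Saa3 48.9%. Whether the words or windows bear on the levels was not tested.

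Library totals worked out from these values ran from 30469002 to 34359802 reads, and 3 reads equal 0.0873 to 0.0985 RPKM for a length of 1 kb. Anxa1, the targeted gene, was at 5.48 ± 1.11 RPKM in CKO and 9.98 ± 3.33 RPKM in WT (SD, n = 4; log2 change -0.73, limma adjusted p = 0.0417, 0.0358 to 0.108 when each library was left out in turn). It also missed the threshold with limma-voom (0.0595), median centring (0.0899), totals without acinar enzymes (0.0747) and no filter on low values (0.0932). WT2 stood apart in its cell type markers. Its summed adipocyte markers reached 144 RPKM against 25.6 to 40.9 elsewhere, with all 8 markers highest there, and all 11 macrophage and all 6 B and plasma cell markers were highest there too. CKO4 was far from the others by its reads over genes, with a chi-square per degree of freedom of 88.8 to 200.1 against each other library and 29.3 to 125.1 between the other libraries. Results on the 10 genes that rest on WT2 or CKO4 are given with and without it.

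Saa3, Lcn2, Hp and Cp, or 4 of the 10 genes, had at least 1 RPKM in 4 or more libraries and were tested, and the other 6 were below that. Of the 4, 0 passed an adjusted p of 0.05 in limma across all 8513 tested genes, where 610 genes (7.17%) passed, 489 (5.74%) lower and 121 (1.42%) higher in CKO. With log2 values centred on the median of each library the split was 267 lower and 305 higher. Saa3 had the smallest p of the 4. All 4 had a negative log2 change, from -1.87 to -0.23, where the median of all tested genes was -0.12. With limma-voom on the recovered reads, 1 of the 4 passed, Saa3, where 4.97% of genes did. The plot of levels by library shows that Saa3 and Lcn2 were the most abundant, that Hp and Cp were mostly near 10 RPKM, and that the other 6 were mostly below 1 RPKM.

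**Figure D1:**
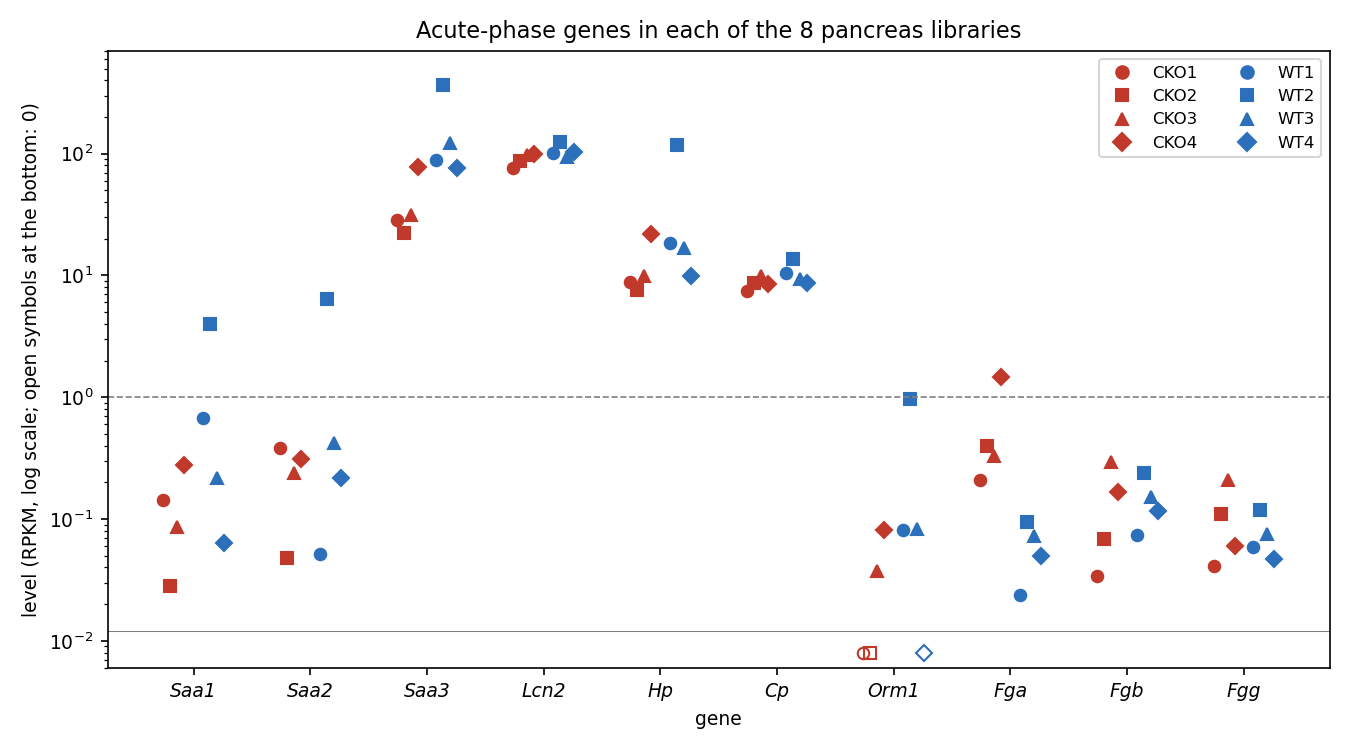
RPKM on a log axis for each of the 10 genes, with CKO libraries in red and WT libraries in blue, 1 symbol shape per replicate number and open symbols for values of 0. The dashed line is 1 RPKM. WT2 (blue square) is the top point of 7 genes, and the red points of Fga, 0.210 to 1.46 RPKM, lie above all its blue points.

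Saa3, the serum amyloid gene expressed mainly outside the liver, had the lowest log2 change of the 4 tested genes. It was at 28.7, 22.2, 31.5 and 77.5 RPKM in CKO1 to CKO4 and at 88.0, 369, 123 and 76.6 RPKM in WT1 to WT4. The groups overlapped by 1 library each, since CKO4 lay just above WT4, and the other 3 CKO libraries were below every WT library. Saa3 averaged 39.96 ± 25.3 RPKM in CKO against 164 ± 138 RPKM in WT (SD, n = 4), 4.11-fold higher in WT and 2.40-fold higher without WT2. The log2 change was -1.87 (SE 0.58, limma adjusted p = 0.0931), which missed the threshold. It was lowest without CKO4 (-2.24, adjusted p = 0.0470, where 3.16% of genes passed) and highest without WT2 (-1.38, adjusted p = 0.107, where 2.94% passed). With limma-voom it was -1.91 (adjusted p = 0.0483). The direction was the same with each of the 8 libraries left out, so the call depends on the setting and on CKO4 while the sign did not change in these settings.

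Saa1 and Saa2, the serum amyloid genes made mainly in liver, had at most 9 reads everywhere but in WT2 and, for Saa1, in WT1 (22 reads). Reads of Saa1 numbered 5, 1, 3 and 9 in the CKO libraries 1 to 4 and 22, 131, 7 and 2 in the WT libraries 1 to 4, or 0.0283 to 0.277 RPKM in CKO and 0.0638 to 3.96 RPKM in WT. Saa2 had 8, 1, 5 and 6 reads in CKO and 1, 126, 8 and 4 in WT, or 0.0478 to 0.384 and 0.0516 to 6.44 RPKM. The groups overlapped for both, and WT2 alone carried 131 of the 162 WT reads of Saa1 and 126 of the 139 of Saa2. Exact two-sided permutation tests of the mean RPKM gave p = 0.229 for Saa1 and 0.543 for Saa2. Without WT2 the mean of Saa1 was 0.318 RPKM in WT against 0.133 RPKM in CKO. Without it the mean of Saa2 was 0.229 RPKM in WT against 0.246 RPKM in CKO, so its direction rested on that library. Annotated transcripts of Saa1 and Saa2 are 93.9% identical, with a shared run of 99 bases, so the authors' counting may have split reads between them, and the split is uncertain. Saa3 shared 61.6% of aligned bases with Saa1. It made up 97.3% to 99.7% of the summed serum amyloid RPKM in each library, so the serum amyloid RNA of this tissue was almost entirely Saa3 in both groups.

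Lcn2, which encodes the siderophore-binding lipocalin 2, exceeded Saa3 in 6 of the 8 libraries and varied less. It was at 75.7, 87.5, 96.7 and 99.6 RPKM in CKO1 to CKO4 and at 101, 124, 94.2 and 104 RPKM in WT1 to WT4. The groups overlapped, since WT3 was below CKO3 and CKO4, and CKO1 and CKO2 were below every WT library. The CKO libraries averaged 89.9 ± 10.8 and the WT libraries 106 ± 12.7 RPKM (log2 change -0.23, SE 0.12, limma adjusted p = 0.240), and the log2 change was -0.15 without CKO1 or without WT2. The coefficient of variation was 11.97% in CKO and 12.01% in WT, against 63.3% and 84.0% for Saa3 in CKO and WT. The ratio of Saa3 to Lcn2 in RPKM was 0.254 to 0.778 in CKO and 0.737 to 2.98 in WT. It was above 1 only in WT2 (2.98) and WT3 (1.31).

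Hp, which encodes the hemoglobin scavenger haptoglobin, was at 8.78, 7.66, 9.85 and 22.0 RPKM in CKO1 to CKO4 and at 18.5, 118, 16.9 and 9.96 RPKM in WT1 to WT4. WT2 was 11.8 times the median of the other 7 libraries, and CKO4 was above WT1, WT3 and WT4. Hp averaged 12.1 ± 6.68 RPKM in CKO against 40.7 ± 51.3 RPKM in WT, with a log2 change of -1.11 (SE 0.76, limma adjusted p = 0.391). Without WT2 the WT mean fell to 15.1 ± 4.54 RPKM (n = 3) and the log2 change was -0.37 (adjusted p = 0.562). The 3.37-fold difference of the means became 1.25-fold without that library.

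Cp, the ferroxidase ceruloplasmin, was at 7.48, 8.71, 9.91 and 8.48 RPKM in CKO1 to CKO4 and at 10.5, 13.6, 9.42 and 8.70 RPKM in WT1 to WT4. The groups overlapped, with CKO3 above WT3 and WT4. The CKO libraries averaged 8.65 ± 1.001 and the WT libraries 10.6 ± 2.16 RPKM of Cp (log2 change -0.25, SE 0.14, limma adjusted p = 0.275), and without WT2 the log2 change was -0.13 (adjusted p = 0.612). Cp overlaps the gene Hps3 on the other strand, and the sources used here do not say whether the counting used strand, so reads of the pair may be mixed. Orm1, an acute-phase plasma protein of the lipocalin family, had 0, 0, 1 and 2 reads in the CKO libraries 1 to 4 and 2, 24, 2 and 0 in the WT libraries 1 to 4. Outside WT2 it stayed below 3 reads in every library, so no level could be shown there. The 24 reads in WT2 equal 0.959 RPKM (95% Poisson interval 0.615 to 1.43 RPKM, for counting error only).

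**Figure D2:**
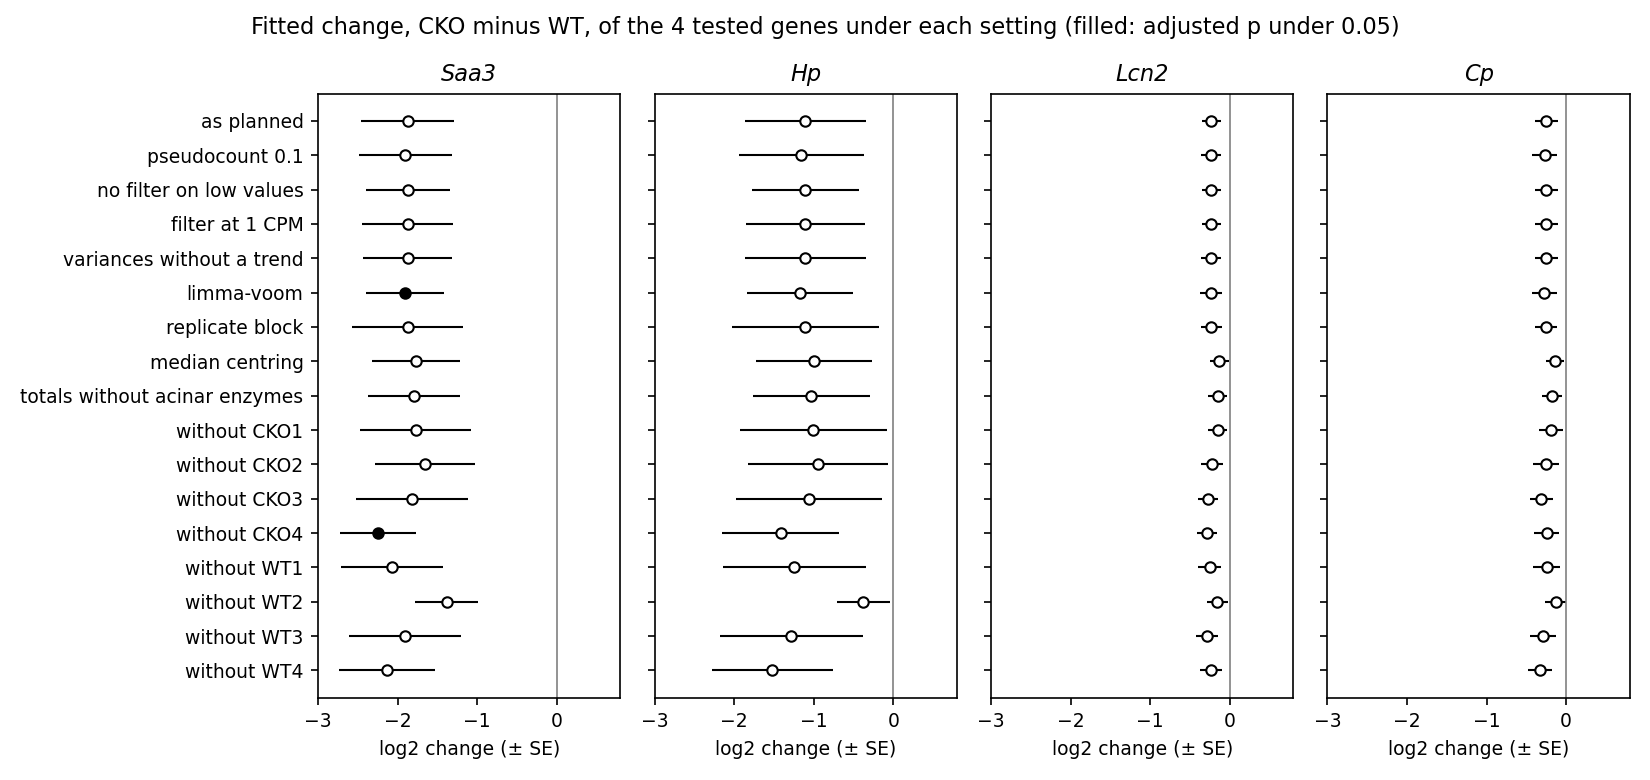
Fitted log2 change, CKO minus WT, with its SE for Saa3, Hp, Lcn2 and Cp as planned, under 8 other settings and with each library left out. All points lie below 0, and filled points, with an adjusted p under 0.05, appear for Saa3 with limma-voom and without CKO4. The points of Hp move from -1.11 to -0.37 when WT2 is left out.

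The fibrinogen genes were below the filter on low values, and Fga was the 1 gene of the 6 below it whose groups did not overlap. Fga, which encodes the alpha chain, had 19, 36, 30 and 122 reads in the CKO libraries 1 to 4 and 2, 8, 6 and 4 in the WT libraries 1 to 4. Its level was 0.210, 0.396, 0.332 and 1.46 RPKM in CKO and 0.0237, 0.0940, 0.0726 and 0.0496 RPKM in WT, so every CKO library was above every WT library. Fga averaged 0.599 ± 0.578 RPKM in CKO against 0.0600 ± 0.0302 RPKM in WT, 9.99-fold higher in CKO and 5.21-fold higher without CKO4. The exact two-sided permutation test gave p = 0.0286, the smallest that 4 against 4 allows, and p = 0.0571, the smallest for 3 against 4, with any 1 library left out. Among the 8375 genes below the filter, 187 (2.23%) had all CKO libraries above all WT libraries, and among the 1912 of them with 100 to 400 reads in all it was 3.5%. The 95% Poisson intervals of the closest pair, CKO1 (0.126 to 0.327 RPKM) and WT2 (0.0406 to 0.185 RPKM), overlapped.

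Fga did not pass in limma on log2(RPKM + 1) with no filter on low values (log2 change 0.53, SE 0.19, adjusted p = 0.161), where 2.75% of 16888 genes passed. With limma-voom on the recovered reads of all genes, a fit chosen after the data were seen, it did (log2 change 2.90, SE 0.70, adjusted p = 0.0357), where 4.22% of 16056 genes passed. In that fit Saa3 did not pass (adjusted p = 0.0710). With 1 library left out, the adjusted p of Fga in that fit was 0.0183 without CKO1 and 0.0448 without CKO4, and 0.0507 to 0.105 without any of the other 6. The log2 change of Fga stayed between 2.36 and 3.25.

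Fgb, the beta chain gene, had 2, 4, 17 and 9 reads in the CKO libraries 1 to 4 and 4, 13, 8 and 6 in the WT libraries 1 to 4. Fgg, the gamma chain gene, had 3, 8, 15 and 4 reads in CKO and 4, 8, 5 and 3 in WT. The groups overlapped for both, with means of 0.140 and 0.144 RPKM for Fgb (exact two-sided permutation p = 0.971) and of 0.105 and 0.0750 RPKM for Fgg (p = 0.629) in CKO and WT. CKO3, and not CKO4, was the highest library for this pair. The reads of Fga divided by those of Fgb gave 9.5, 9, 1.76 and 13.6 in CKO1 to CKO4 and 0.5 to 0.75 in WT. Fga thus had more reads than Fgb in CKO and not in WT. Reads are not scaled to length, which was 2649 bases for Fga and 1705 for Fgb. In RPKM the 2 chains were close in CKO3, at 0.332 for Fga and 0.292 for Fgb. With as few as 2 reads in some libraries these ratios are imprecise, and the test of the difference between the chains was not run. Fgg overlaps the long noncoding RNA gene Gm30097 on the other strand, so its few reads may include that transcript.

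**Figure D3:**
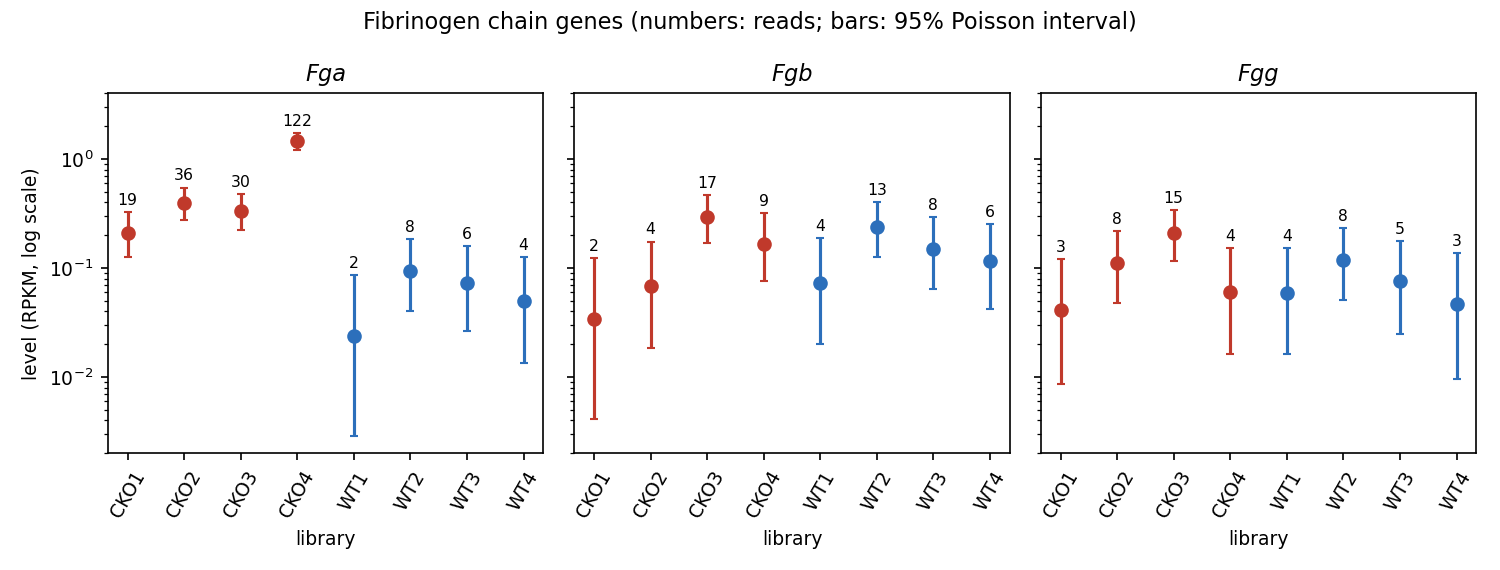
RPKM on a log axis of Fga, Fgb and Fgg in each library, with CKO in red and WT in blue, 95% Poisson intervals as bars and the read number above each point. Fga has 19 to 122 reads in CKO and 2 to 8 in WT, while the points of Fgb and Fgg overlap between the groups.

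The hepatocyte markers bear on how much liver RNA the libraries held. Their sum was 2.16 to 3.08 RPKM in CKO1 to CKO3, 6.81 in CKO4, 6.95 in WT2 and 2.28 to 2.77 in the other WT libraries. Ambp gave 1.42 to 2.52 RPKM of it in every library. The largest part was Cyp2e1 in WT2 (4.05 RPKM) and Apoa1 in CKO4 (3.43 RPKM). The like sums of WT2 and CKO4 thus came from different genes and do not show like amounts of liver RNA. Albumin was at 0.0424 to 0.476 RPKM in all 8 libraries, highest in CKO4, and Serpina1c was at 0 in all but CKO4. Of the 12 markers 10 were in the table, and only Ambp, which the duct list also holds, passed the filter. In CKO4, the library with the most Fga reads, the apolipoprotein gene Apoa1 was at 3.43 RPKM against at most 0.0592 RPKM elsewhere. Apob, Ahsg and Apoa2 were highest there too, at 0.132, 0.171 and 0.372 RPKM against at most 0.0210, 0.105 and 0.308 RPKM elsewhere. The markers did not all go this way. Apoh was at 0 in CKO4, Apoh, Cyp2e1 and Tat were highest in WT2, and Ambp was highest in CKO3. In WT2, the library with the most Saa1, Saa2 and Orm1 reads, Apoa1 was at 0.0315 RPKM and Cyp2e1, a cytochrome P450 gene of liver that fat also expresses, at 4.05 RPKM. The part of these transcripts in the Fga, Saa1 and Saa2 values was not tested.

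WT2 was the highest of the 8 libraries for 7 of the 10 genes (Saa1, Saa2, Saa3, Lcn2, Hp, Cp and Orm1), where 29.6% of all genes were highest in it. CKO3 was highest for Fgb and Fgg and CKO4 for Fga. Beside the adipocyte sum of 144 RPKM, WT2 had a macrophage sum of 660 RPKM against 188 to 479 in the others, a fibroblast sum of 123 against 55.6 to 104, and a B and plasma cell sum of 13.2 against 0.142 to 4.54. Adipsin (Cfd), a fat cell product, was at 77.5 RPKM in WT2 and at most 9.99 RPKM elsewhere, in CKO4. CKO4, where Saa3 and Hp were the highest of the CKO libraries, also had the highest adipocyte (40.9 RPKM), neutrophil (53.1) and hepatocyte (6.81) sums of its group. WT4 had the lowest adipocyte sum of all libraries (25.6 RPKM), with Saa3 at 76.6 RPKM, close to the 77.5 RPKM of CKO4.

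Neutrophil markers summed to 15.9, 26.1, 42.2 and 53.1 RPKM in CKO1 to CKO4 and to 88.0, 77.6, 62.6 and 41.2 RPKM in WT1 to WT4. Of 13 markers, 12 had a lower mean in CKO and 0 of the 7 tested passed, at a median log2 change of -0.36. S100a8 and S100a9, the calprotectin subunits of neutrophils and monocytes, were at log2 changes of -1.03 (adjusted p = 0.0773) and -1.24 (adjusted p = 0.0763). Both passed without CKO4 (0.0494 and 0.0358), and without WT2 their adjusted p rose to 0.172 and 0.187. The granule genes Ngp, Camp and Ltf were at or near 0 in all libraries but WT2 and WT3. Macrophage markers summed to 188 to 382 RPKM in CKO and 342 to 660 in WT. Lyz2 alone was at 109 to 250 RPKM in CKO and 206 to 434 in WT, most of the sum of these 11 markers. Of the 11, 2 fell and 0 rose, beside 5.74% of all tested genes lower, namely the chemokine receptor Ccr2 (log2 change -0.87, adjusted p = 0.0359) and the signalling adaptor Tyrobp (-0.76, 0.0470), each of which missed the threshold without CKO2, CKO4 or any 1 of the WT libraries. The part of these cells in the Saa3 and Hp values was not tested.

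**Figure D4:**
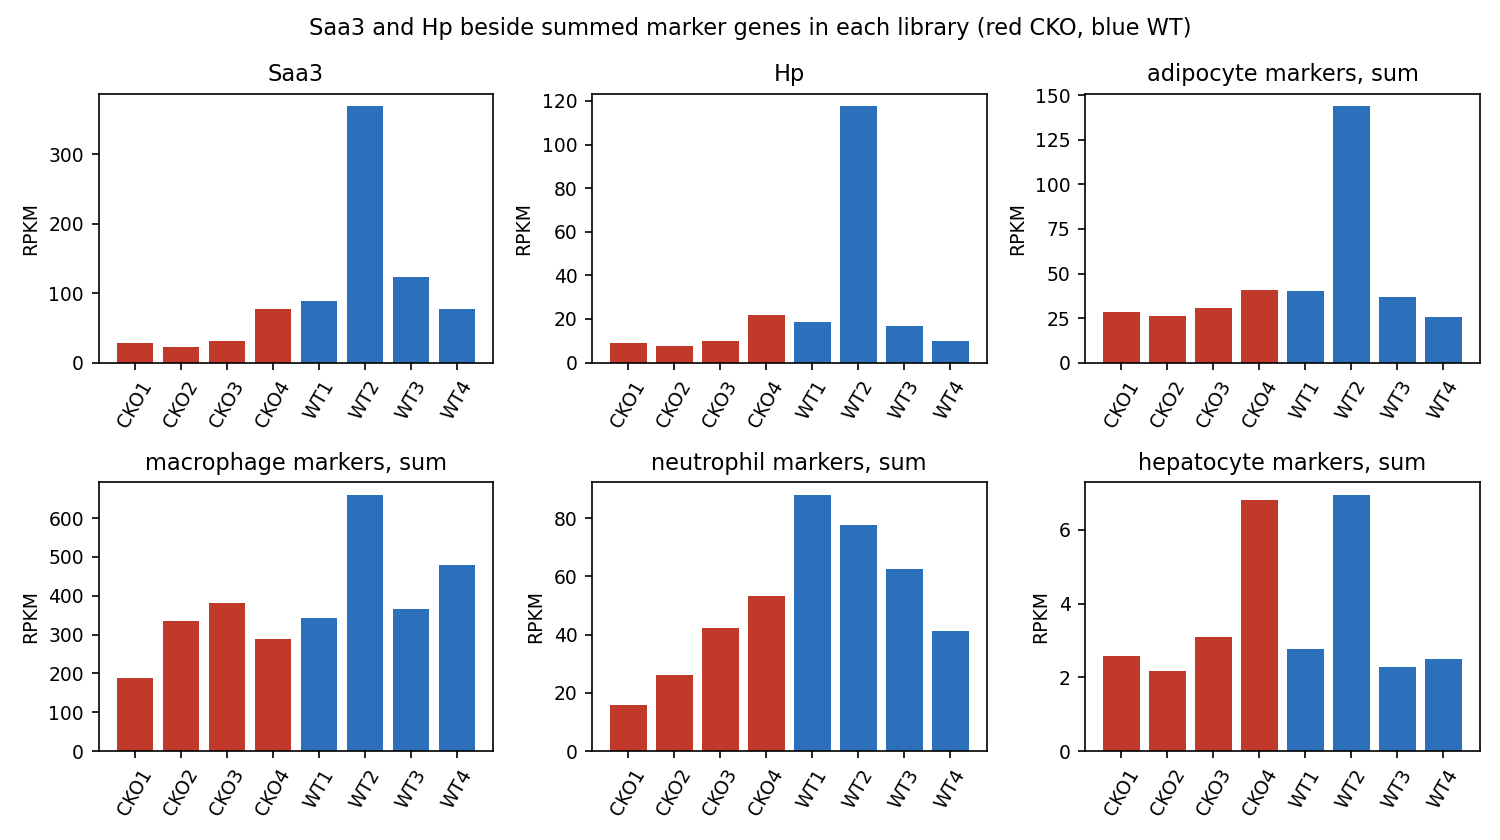
RPKM of Saa3 and Hp and the summed RPKM of adipocyte, macrophage, neutrophil and hepatocyte markers in each library, as bars from 0, CKO in red and WT in blue. WT2 has the tallest bar for Saa3 (369), Hp (118), the adipocyte sum (144) and the macrophage sum (660), and WT1 has the highest neutrophil sum (88.0). The macrophage sum is mostly Lyz2, at 434 RPKM in WT2.

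In the remaining marker lists the counts stand beside the 5.74% of all tested genes that were lower and the 1.42% that were higher. Duct genes had 1 of 7 tested lower, Sox9, a transcription factor of duct cells (log2 change -0.87, adjusted p = 0.0212). Endothelial genes had 1 of 5 lower, the VEGF receptor Kdr (-0.55, 0.0278). Acinar genes had 1 of 11 lower, the pancreatic amylase Amy2a5 (-1.13, 0.00541), a gene with near-identical copies, and islet genes 1 of 6 higher, glucagon (Gcg, 0.55, 0.0451). Fibroblast, mesothelial and adipocyte genes had 0 of 7, 0 of 2 and 0 of 3 past the threshold, and the B and plasma cell genes were below the filter. At least 1 omitted library ended the calls of Sox9, Kdr and Gcg.

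The cytokines that induce acute-phase genes were mostly scarce. Of 10 in the table, 3 were tested and 1 rose (beside 1.42% of all tested genes), Lif, a ligand of the interleukin 6 family. Lif was at 6.64, 9.29, 12.1 and 17.2 RPKM in CKO1 to CKO4 and at 3.59, 1.87, 4.86 and 4.06 RPKM in WT1 to WT4 (log2 change 1.40, SE 0.27, limma adjusted p = 0.0166). The groups did not overlap, where 2.46% of tested genes had all CKO libraries above all WT libraries, and the adjusted p was at most 0.0484 with any 1 library left out. Il1b, the interleukin 1 beta gene, was at 4.48 ± 2.58 against 5.83 ± 0.722 RPKM (log2 change -0.46, limma adjusted p = 0.383, and -0.11 without CKO1). Il6 had 0.154 to 1.10 RPKM in CKO and 0.345 to 0.546 RPKM in WT, below the filter. In the same comparison Saa3, Hp and Lcn2 had negative log2 changes, short of the threshold, and Fga, below the filter, was higher in CKO. Within CKO, CKO4 was the highest library for Lif (17.2 RPKM) and also for Saa3 (77.5), Hp (22.0) and Fga (1.46). A link between Lif and these genes was not tested.

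Among the cytokine receptors 1 of 11 fell and 0 rose, beside 5.74% of all tested genes lower, with a median log2 change of -0.13. This was Il22ra1, a chain of the interleukin 22 receptor of epithelial cells, at 6.13 ± 0.395 RPKM in CKO and 9.10 ± 1.47 RPKM in WT (log2 change -0.49, adjusted p = 0.0413, up to 0.115 with 1 library left out). That call was lost with the replicate block (0.0520), limma-voom (0.0506), median centring (0.0562), totals without acinar enzymes (0.0507) and no filter on low values (0.0703). Among signalling and transcription factors 1 of 16 rose and 0 fell, beside 1.42% of all tested genes higher, with a median of 0.04. Egr1, an immediate early factor, was at 40.3 to 46.0 RPKM in CKO and 8.30 to 9.57 RPKM in WT (log2 change 2.15, adjusted p = 3.09e-07). Cebpb, a C/EBP factor that drives acute-phase genes, was at 22.5, 52.6, 46.7 and 58.4 RPKM in CKO1 to CKO4 and at 14.8 to 25.2 RPKM in WT. Its log2 change of 0.96 missed the threshold (adjusted p = 0.0574), with CKO1 within the WT range. It passed without CKO1 (0.00138), with median centring (0.0411) and with totals without acinar enzymes (0.0409), and its adjusted p rose to 0.138 without WT2. Cebpa, a C/EBP factor of differentiated hepatocytes and fat cells, averaged 32.8 ± 6.61 RPKM in CKO and 47.0 ± 8.06 RPKM in WT, and its log2 change was -0.51 (limma adjusted p = 0.0799).

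Of 16 other acute-phase genes tested, 0 passed, with a median log2 change of -0.18 beside the -0.12 of all genes. The 4 with the smallest p are named. These were the interleukin 1 receptor antagonist Il1rn (-0.60, adjusted p = 0.0519), the hepcidin paralog Hamp2 (-0.59, 0.0882), the lipopolysaccharide coreceptor Cd14 (-0.42, 0.122) and the leucine-rich glycoprotein Lrg1 (-0.48, 0.181). The hepcidin gene Hamp itself was below the filter, at a mean of 0.440 RPKM in CKO and 0.670 RPKM in WT. Without WT2 the log2 change of Lrg1 was -0.21 (adjusted p = 0.348), and without CKO1 that of Cd14 was -0.28 (0.233). Il1rn was at 8.08 to 14.7 RPKM in CKO and 15.5 to 20.96 RPKM in WT, with no overlap, where 16.2% of tested genes had all WT libraries above all CKO libraries. It passed with totals without acinar enzymes (0.0490), and its adjusted p was 0.0503 to 0.141 with 1 library left out. Of the 26 genes of this list in the table, 12 were highest in WT2. Of genes whose plasma product falls in the acute phase, 0 of 2 tested passed: transthyretin (Ttr, 0.48, 0.0884) and transferrin (Trf, -0.65, 0.286). Without WT2 the log2 change of Trf was -0.22 (adjusted p = 0.462), and without CKO4 that of Ttr was 0.32 (0.180).

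For the receptors and partners of these proteins 0 of 11 passed, at a median log2 change of -0.33, and 10 of the 11 were negative. The smallest p were those of the 2 chains of the integrin that binds fibrinogen on leukocytes, Itgb2 (log2 change -0.67, adjusted p = 0.0749) and Itgam (-0.80, 0.0990). Itgb2 passed with the replicate number as a block (0.0373), and its adjusted p was 0.0546 to 0.153 with 1 library left out. Among coagulation and fibrinolysis genes 0 of 8 passed, with a median of -0.02, including coagulation factor F10 (-0.69, 0.0958) and tissue factor F3 (0.30, 0.183), and without CKO1 the log2 change of F10 was -0.44.

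**Figure D5:**
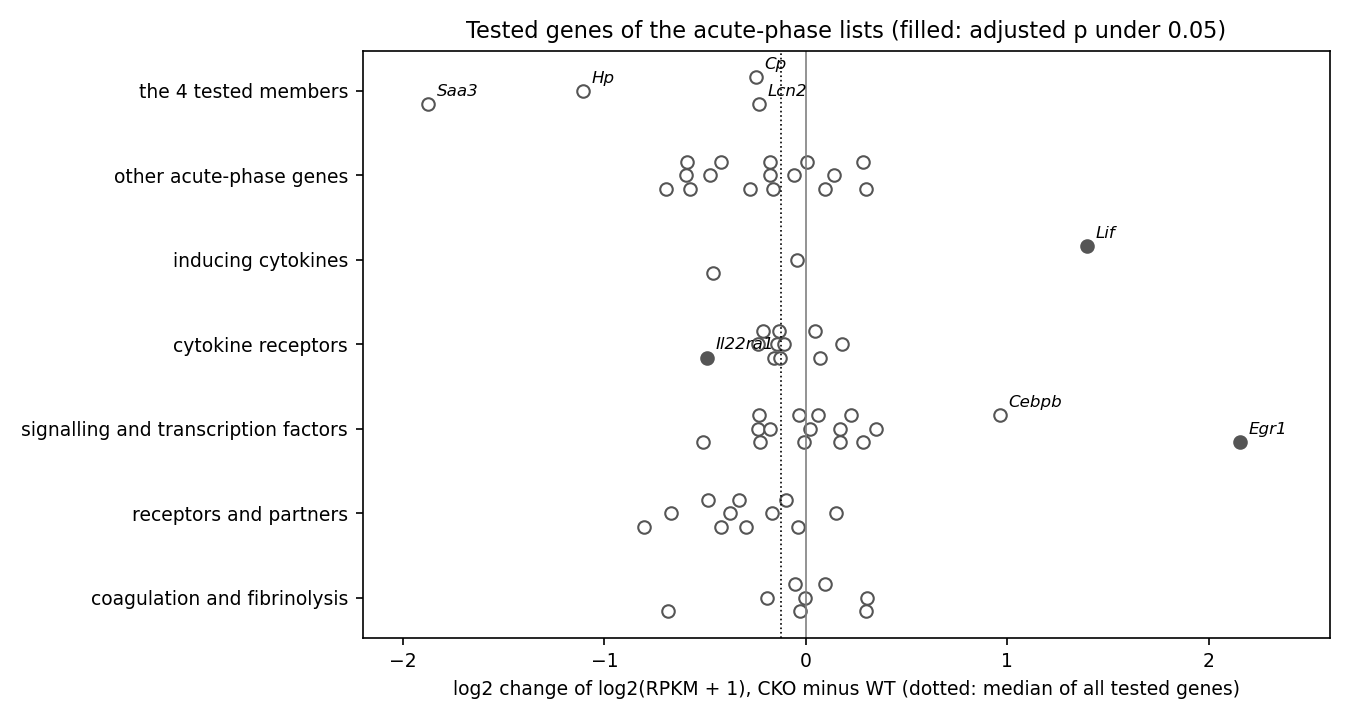
Log2 change, CKO minus WT, of each tested gene, 1 row per list, with filled points for an adjusted p under 0.05 and a dotted line at the median of all tested genes, -0.12. Lif and Egr1 are the filled points above 0 and Il22ra1 the one below, and Saa3 and Hp are the leftmost of the 4 tested acute-phase genes of the top row.

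The genes most like each tested acute-phase gene were taken from 4024 genes with a mean of at least 5 RPKM, by Pearson r of log2(RPKM + 1) over the 8 libraries. These r are descriptions, since the libraries share WT2 and the group difference. The ranking rests on WT2: without it 2 of the 12 genes named, Steap4 and Sdc4, were still among the 3 most like their gene, and the other 10 ranked 7 to 70. For Saa3 they were Wfdc17, a secreted protein of activated macrophages (r = 0.950, and 0.903 without WT2), the inhibitory Fc receptor Fcgr2b (0.947 and 0.879) and the syndecan Sdc4 (0.946 and 0.928). Wfdc17 was at 8.998 to 14.7 RPKM in CKO and 20.6 to 42.2 RPKM in WT and fell (log2 change -1.22, limma adjusted p = 0.0107). Sdc4 fell too (-0.61, 0.0118), and both did so with every 1 library left out, beside 5.74% of all tested genes lower. Genes chosen for likeness to Saa3 over the same libraries share its group difference, so these calls are no separate result. For Hp they were the metalloreductase Steap4 (0.988 and 0.940), the serpin Serpina3n (0.972 and 0.855) and transferrin (Trf, 0.967 and 0.794). WT2 was the highest library for all of these. Steap4 was at 19.1 RPKM in WT2 against 3.08 to 6.50 RPKM in the others. Lcn2 went with the copper transporter Slc31a2 (0.970 and 0.948), the lectin receptor Clec4d (0.954 and 0.960) and the interferon-induced Ifitm2 (0.951 and 0.919). Cp went with Tpst2, an enzyme that sulfates tyrosines (0.971 and 0.945), the adhesion protein Ninj1 (0.962 and 0.917) and the macrophage receptor Csf1r (0.961 and 0.875). Of these 9 genes most like Hp, Lcn2 or Cp, 0 passed the test, beside 7.17% of all tested genes.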

How the data were processed

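Whole pancreas RNA was sequenced in 8 libraries, 4 CKO and 4 WT per the labels. The deposited table gives 1 value per gene and library with no unit in its header. The authors' values are RPKM, as read from the numbers: of 16068 genes above 0 in at least 2 libraries, 16056 (99.93%) gave whole reads within 0.05 reads in every library. The build is mm10, per the submitters' processing notes, and the sources used here name no aligner, counter, annotation, strand setting or filter. A further 1 column of the table, without a name, was not used.

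Genes at 1 RPKM or more in 4 or more libraries entered limma 3.58.1 (R 4.3.3) on log2(RPKM + 1). The fit had a single group term, a mean trend, robust variances and Benjamini-Hochberg adjustment over all tested genes (threshold 0.05). Genes below that filter had an exact two-sided permutation test of mean RPKM over 70 arrangements. The floor was 3 reads. Intervals and floors cover counting error only. Other settings were a pseudocount of 0.1, no filter, a filter at 1 CPM, variances without a trend, limma-voom on recovered reads, a replicate block, median centring, totals without 30 acinar enzyme genes, and leaving out each library. Limma-voom with no filter, alone or with 1 library left out, was added after the data were seen. The steps were tested on simulated data. Python 3.11.15 with pandas 2.3.3, SciPy 1.17.1, NumPy 2.4.6 and Matplotlib 3.10.9 was used, with GENCODE M21 positions.

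The genes and lists were chosen with earlier results of these data known. Named are the 10 acute-phase genes, Anxa1, and from each list the genes past the threshold and some of the up to 4 genes (3 for markers) with the smallest p. For each tested member the 3 genes most like it are named. Cfd, Apoa1, Apoa2, Apob, Apoh, Ahsg, Tat, Cyp2e1, Alb, Serpina1c, Hamp, Ngp, Camp, Ltf, Lyz2, Ambp and Il6 are named as list members beside a result. They were chosen after their values were seen. In the list of receptors and partners, 1 gene is not reported here and was left out of its counts.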

Additional observations from a re-analysis of the deposited data

Results flagged for a closer look

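Each of the 10 genes gave 1 group of 4 libraries in CKO and 1 in WT, 20 in all. In 8 of these groups the top library lay farther from the others than Dixon's 95% limit. In WT these were WT2 at 3.96 RPKM for Saa1, 6.44 for Saa2, 369 for Saa3, 118 for Hp and 0.959 for Orm1. In CKO these were CKO4 at 77.5 RPKM for Saa3, 22.0 for Hp and 1.46 for Fga. All 5 in WT were in the same library, as were all 3 in CKO, so they are not independent of each other. Normally distributed values pass the limit in about 1 of 20 groups, but these are RPKM without a log, some from few reads. The share of all genes past the limit was not counted, so the 8 cannot be called particular to these genes. WT2 was the highest library for 29.6% of all genes.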

How the results depend on the processing

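The count of acute-phase genes past the threshold was 0 as planned, where 7.17% of all tested genes passed. It was 1 with limma-voom (Saa3, beside 4.97% of all genes) or limma-voom with no filter (Fga, beside 4.22%). With each library left out it was 0 to 1, with 1 (Saa3) without CKO4, beside 3.16%. Limma-voom with no filter and 1 library left out gave 0 to 2. The count was 2 (Saa3 and Fga) without CKO4, beside 1.8% of all genes, and 1 (Fga) without CKO1, beside 4.52%. Without WT2 it was 1 (Saa3, adjusted p = 0.0431), beside 2.6%. Among the 6 genes below the filter, 1 had groups that did not overlap, Fga, under every omission. Over all genes, 610 passed as planned, 572 (305 higher and 267 lower) with median centring and 644 (233 and 411) with totals without acinar enzymes. With a library left out the count was 185 to 686: 228 without CKO2, 267 without CKO4, 185 without WT1, 245 without WT2, 297 without WT3 and 254 without WT4. Those fits have fewer samples. Median centring moved the median log2 change of all genes from -0.12 to -0.02. The log2 changes of Saa3, Lcn2, Hp and Cp were negative in every setting. Serpina3n turned from -0.28 to 0.0132 without WT2, within a range of -0.42 to 0.0132 over the omissions. The cause was not tested.

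The replicate numbers of the labels were shared between groups. Same-numbered libraries had correlated deviations over 0.1 in 1 of 4 pairs (-0.123, -0.315, 0.142 and 0.0331), and 1 of 4 CKO libraries correlated best with its own number, so the numbers were not taken to pair samples. With the replicate number as a block, 548 genes passed, 0 of the 4 acute-phase genes did, and Saa3 had an adjusted p of 0.179. Depth limited Saa1, Saa2, Orm1, Fga, Fgb and Fgg, where most libraries had fewer than 20 reads. For Fga the 4 WT libraries held 20 reads in all.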
